A study of Saccharomyces cerevisiae with 2 samples.

Results

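The genes described here encode the proteins of the small subunit of the cytosolic ribosome of the budding yeast Saccharomyces cerevisiae, together with ASC1, whose product sits on the same subunit. The set was chosen with earlier results of these data known, though its definition by name uses no measured value. Members are all genes with a symbol made of RPS, a number and at most a copy letter A or B, plus ASC1. A value on both arrays was obtained for 56 such genes, out of 5598 measured genes in all. The 56 genes comprised 24 pairs of copies A and B and 8 single-copy genes. Total RNA of yeast given 2% glucose was compared with total RNA of yeast given 3% pyruvate, a non-fermentable carbon source. Both RNAs were hybridised together on each of 2 arrays. Glucose RNA carried the dye Cy5 on array 1, and pyruvate RNA carried it on array 2. The labels name no strain, medium, growth phase or harvest time, and leave unsaid whether the arrays came from different cultures.

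Ribosomal proteins assemble with ribosomal RNA in the nucleolus, and the small subunit then carries the mRNA and reads its codons. Its head and body enclose the mRNA channel, and its platform lies near the channel's exit. In yeast, ribosomal protein genes are among the most strongly transcribed. They are driven by Rap1, Fhl1, Ifh1 and Sfp1 under control of the TOR and protein kinase A pathways, and are known to be turned down when the carbon source becomes poor. Most of these genes exist as pairs left from an ancient duplication of the whole genome, with proteins that are identical or nearly so.

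Every value below is a log2 ratio of pyruvate over glucose, so that -1 means a level 2-fold lower in pyruvate, and every mean is given ± SD with n = 2 arrays. The direction rests on the deposited ratio being Cy5 over Cy3, which is likely from the usual convention and the labels' order of channels and is stated by no source; with the other order every sign would turn. Read this way, 5 genes that glucose is known to repress, ADH2, PCK1, FBP1, ICL1 and JEN1, stood between 3.80 and 6.06. The values are relative to the RNA hybridised, and lower levels in each cell cannot be told apart from fewer cells with the transcript. The number of arrays limits the precision: p-values reflect only how far these arrays differ, a spread that may be purely technical.

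In pyruvate, small subunit protein genes stood low among all genes, with modest ratios: the median member lay above 18.0% of them. By limma, 15 of the 56 fell (26.8%), 0 rose and 41 did not pass, at an adjusted p under 0.05 over all genes. Across all 5598 genes, 17.2% passed as lower and 27.1% as higher. At an unadjusted limma p under 0.05, 24 members were lower, while 3180 of the 5598 genes passed in either direction. The share of all genes that was lower at this threshold was not counted, so these counts cannot be compared. The median member stood at -0.51 (1.42-fold lower), against a median of 0.10 over all genes, so that it lay 0.61 below the typical gene. Below 0 on both arrays were 48 members (85.7%), against 36.3% of all genes, and all 56 had a mean below the median of all genes. Ratios of 2-fold were rare: 1 member, RPS28B, was at least 2-fold lower on both arrays (1.79%, against 4.81% of all genes). The 15 that fell had means from -1.15 to -0.56 and limma adjusted p from 0.0152 to 0.0455. With each array centred on its own median, 28 members passed, and 22.5% of all genes passed as lower. Without moderation of the variances 0 members passed, and 0.0893% of all genes passed as lower.

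**Figure D1:**
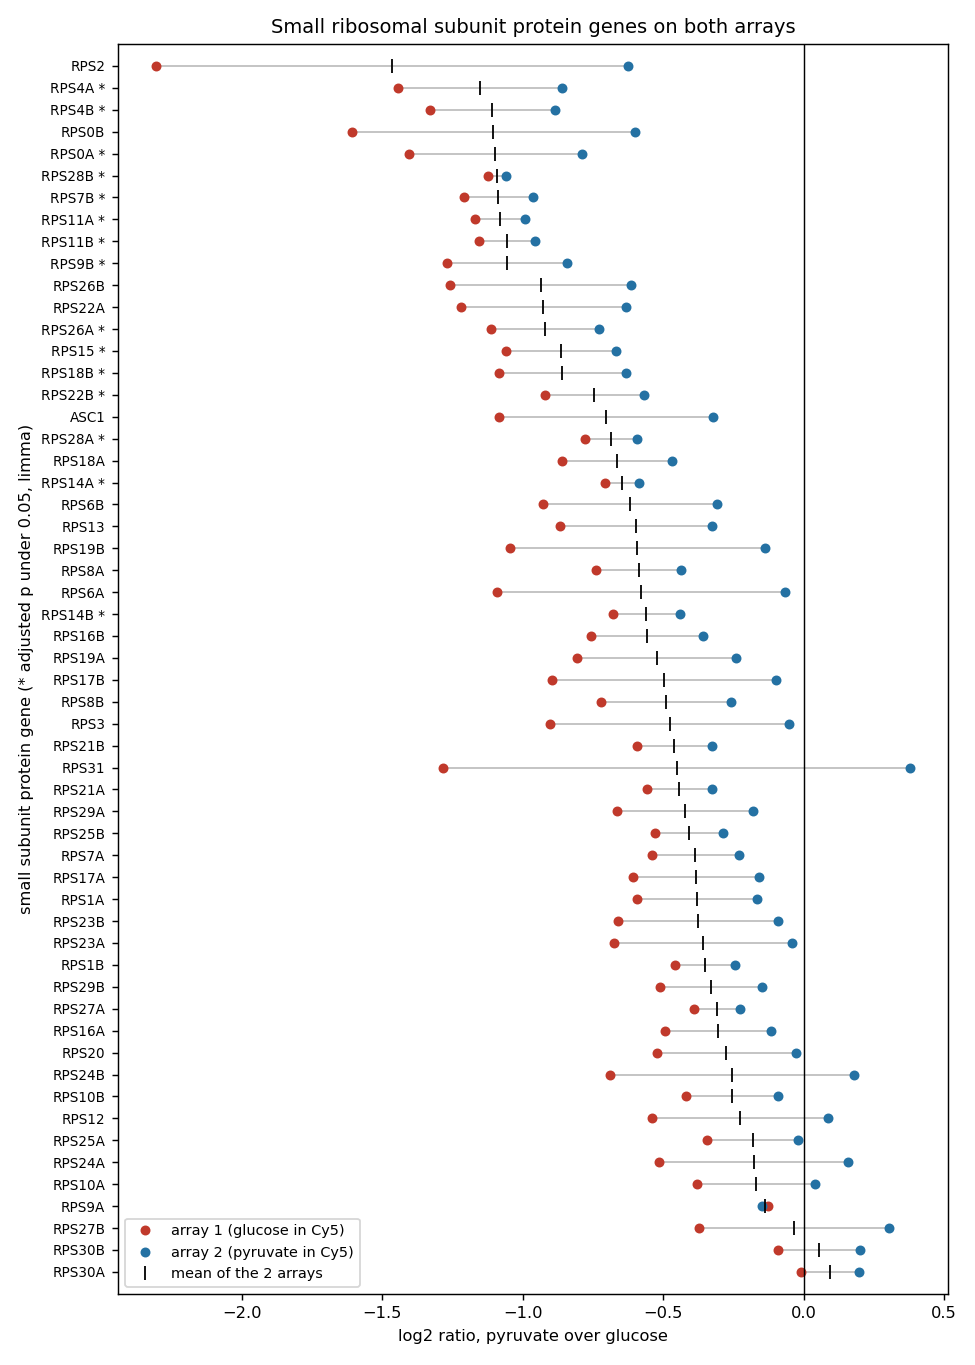
Log2 ratio of pyruvate over glucose of each of the 56 small subunit protein genes, ordered by mean; red points are array 1, blue points array 2 and black ticks the mean, and a star marks genes at a limma adjusted p under 0.05. All red points lie below 0, and blue points lie to the right of the red ones in 55 of 56 genes.

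Nearly every member had a lower ratio on array 1 than on array 2. On array 1 all 56 members were below 0, with a median of -0.75, a lowest value of -2.31 and a highest of -0.01. On array 2, 48 were below 0, with a median of -0.27, a lowest value of -1.06 and a highest of 0.38. The ratio was higher on array 2 in 55 of 56 members (98.2%), against 44.7% of all genes, and RPS9A was the exception. The median gap, array 2 minus array 1, was 0.43 over the members and -0.03 over all genes. A gap of 0.5 or more was found in 21 members (37.5%), against 2.5% of all genes. At least 2-fold lower were 19 members on array 1 (33.9%, against 7.29% of all genes) and 1 on array 2 (1.79%, against 8.29%). The median member lay above 12.1% of all genes on array 1 and above 33.3% on array 2. Each dye order was used on 1 array, so dye and array cannot be told apart. Within an array, by contrast, the features of a member differed little: for the 37 members with 2 features the median gap between features was 0.06 on array 1 and 0.04 on array 2.

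**Figure D2:**
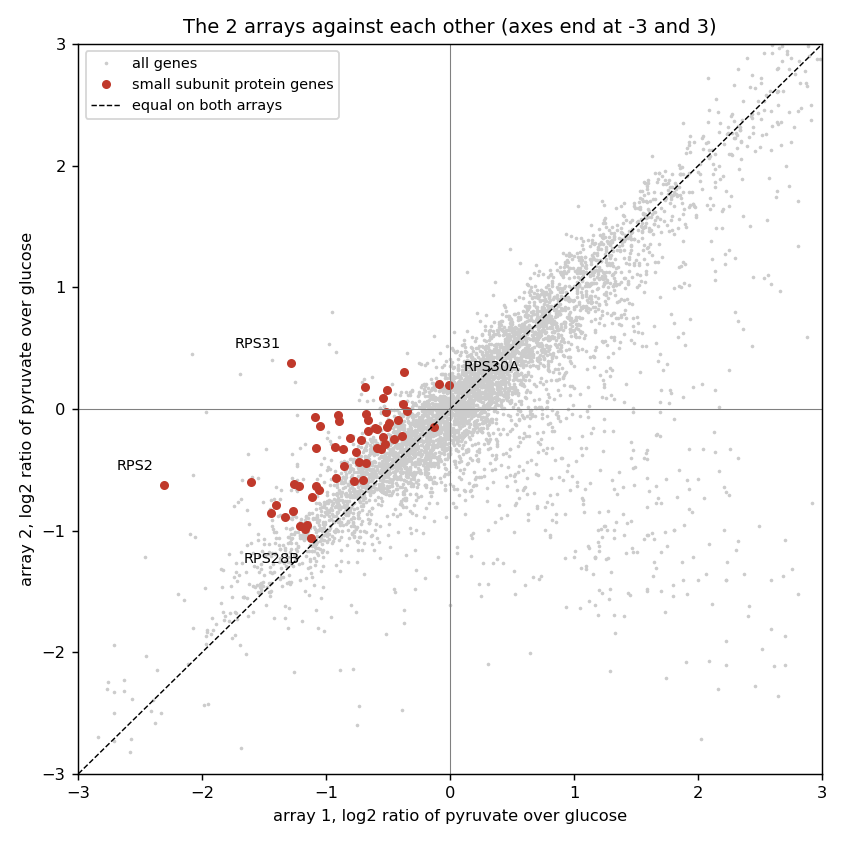
Log2 ratio of pyruvate over glucose on array 2 against array 1 for all genes (grey) and small subunit protein genes (red), with a dashed line where both arrays are equal; genes beyond the ends of the axes are not drawn. The red points lie above the line in 55 of 56 genes, and RPS2 and RPS31 lie farthest from it.

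The genes with the lowest and the highest means both encode proteins that line the entry of the mRNA channel. RPS2, whose protein takes part in accurate decoding, had the lowest mean of all members and the largest gap between arrays. Its only feature stood at -2.31 on array 1 and -0.63 on array 2 (-1.47 ± 1.19) and did not pass (limma adjusted p of 0.123). RPS3, its neighbour at the entry, gave -0.90 and -0.05 (-0.48 ± 0.60) and did not pass. At the other end, RPS30A, at -0.01 and 0.20, and RPS30B, at -0.09 and 0.20, had the highest means of the members, 0.09 ± 0.14 and 0.05 ± 0.21. These copies of a small, basic protein of the entry channel were the members whose mean was above 0. After centring each array on its median they stood at -0.01 and -0.05.

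Of the 34 members of body and platform, 11 fell (32.4%, against 17.2% of all genes). RPS4A stood at -1.44 on array 1 and -0.86 on array 2 (-1.15 ± 0.41), and RPS4B at -1.33 and -0.89 (-1.11 ± 0.31); both fell, with limma adjusted p of 0.0369 and 0.0282. RPS11A, at -1.17 and -0.99 (-1.08 ± 0.13), and RPS11B, at -1.16 and -0.96 (-1.06 ± 0.14), fell with values that nearly coincide between the copies. The proteins of both pairs bind the ribosomal RNA of the body. RPS0A, needed to mature the subunit's RNA, fell with -1.41 and -0.79 (-1.10 ± 0.44), while RPS0B had the same mean but a wider gap, -1.61 and -0.60 (-1.10 ± 0.71), and did not pass. RPS21A (-0.44 ± 0.16) and RPS21B (-0.46 ± 0.19), whose proteins bind that of RPS0, did not pass. RPS22B fell (-0.75 ± 0.25), and RPS22A, though lower in mean at -0.93 ± 0.42, did not pass. RPS13, a single-copy gene for a body protein facing the large subunit, stood at -0.87 and -0.33 (-0.60 ± 0.38) and did not pass. RPS6A, which encodes the subunit protein phosphorylated in response to TOR signalling, gave -1.09 and -0.07, so that its value on array 2 was near 0; RPS6B gave -0.93 and -0.31. Neither copy passed.

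Near the exit of the mRNA channel, the pairs RPS1, RPS14, RPS26 and RPS28 were looked at. RPS1 and RPS14 were added after their values were seen. These pairs are a choice and do not describe the region as a whole. RPS1A (-0.38 ± 0.30) and RPS1B (-0.35 ± 0.15), of the body and platform, did not pass. RPS14A (-0.65 ± 0.08) and RPS14B (-0.56 ± 0.17), of the core of the platform, both fell with small ratios that repeated closely. RPS26A fell (-1.11 and -0.73; -0.92 ± 0.27), and RPS26B had nearly the same mean (-1.26 and -0.61; -0.94 ± 0.46) without passing, at a limma adjusted p of 0.0587. The protein of this pair contacts the mRNA just upstream of the codons being read. RPS28B gave -1.12 and -1.06 (-1.09 ± 0.04), the smallest adjusted p of all members (0.0152 by limma), and RPS28A fell by less, with -0.78 and -0.59 (-0.69 ± 0.13). Rps28 is a protein of the head next to the exit, and in yeast it takes part in the decay of the RPS28B mRNA.

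In the head, 4 of 22 genes fell, the RPS28 copies, RPS15 and RPS18B. This share of 18.2% is close to the 17.2% of all genes. Below 0 on both arrays, however, were 19 of the 22 (86.4%, against 36.3% of all genes). RPS15, a single-copy gene whose protein reaches towards the decoding site, stood at -1.06 and -0.67 (-0.86 ± 0.28; limma adjusted p of 0.0362) and was 1 of the 8 single-copy genes to fall, the others not passing. RPS18B stood at -1.09 and -0.63 (-0.86 ± 0.32). ASC1, the yeast counterpart of RACK1, a scaffold on the head that acts in signalling and in the response to stalled ribosomes, gave -1.08 and -0.32 (-0.70 ± 0.54) and did not pass. RPS20, whose protein is marked with ubiquitin when ribosomes collide, gave -0.52 and -0.03 (-0.28 ± 0.35) and did not pass either. RPS19B, of a head protein needed to mature the subunit, was among the members with the largest gaps, with -1.05 and -0.14.

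Some members, of the head and of the body, had values on both sides of 0. RPS31, made as a fusion of ubiquitin with the ribosomal protein, gave opposite directions on the arrays: -1.28 on array 1 and 0.38 on array 2 (-0.45 ± 1.18). Of all 5598 genes, 9 had a gap as large as that of RPS31 in the same direction, RPS2 among them. RPS12 (-0.54 and 0.09) and RPS10A (-0.38 and 0.04), also of the head, changed sign between the arrays too, as 8 of 56 members did. The share of all genes that did so was not counted. The other members were RPS24A, RPS24B, RPS27B, RPS30A and RPS30B, all of the body, so the change of sign was not particular to the head. None of the 8 passed.

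Members were also set out by place and by descent, which the choice by name did not use. The 34 genes of body and platform, of which 32.4% fell, had a median of -0.58, and the 22 head genes, of which 18.2% fell, one of -0.46. Over all genes 17.2% fell, a share near that of the head. Below 0 on both arrays were 85.3% of the body and platform genes and 86.4% of the head genes, against 36.3% of all genes. On array 1 the medians of these groups were -0.73 and -0.77, and on array 2 -0.33 and -0.15, so their order differed between the arrays. Of 23 genes of the families shared with bacteria, 9 fell (39.1%; median -0.65), and all 23 were below 0 on both arrays. Among 33 genes of families that bacteria lack, 6 fell (18.2%, again near the 17.2% of all genes; median -0.45), and 25 were below 0 on both arrays (75.8%, against 36.3% of all genes). These medians held the same order on both arrays, -0.87 against -0.69 on array 1 and -0.47 against -0.23 on array 2. No test of these differences was made.

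Copies A and B of a pair gave similar ratios in most pairs. The absolute difference between copies had a median of 0.09 over the 24 pairs, against 0.34 between genes of different families, and 15 pairs differed by 0.1 or less. The SD of A minus B over the arrays had a median of 0.09, that of a member's ratio a median of 0.30. A difference between any members leaves out the shift they share between the arrays. The SD of differences between genes of different families was not computed, so the smaller SD is not shown to be particular to pairs. Over the 24 pairs the Pearson r of copy A with copy B was 0.70, as a description of points that share arrays and, in part, sequence. The large subunit, with 34 pairs, had a median absolute difference of 0.15. Probes can bind both copies of a pair, and the probe sequences were not used here, so a small difference does not show that the copies changed alike. Where a difference is seen, the same binding could hide part of it, which was not tested.

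The sign of A minus B was the same on both arrays in 13 of 24 pairs, 7 with copy A above copy B and 6 with copy B above, and it differed in 11. The pair RPS9 stood apart the most. RPS9A gave -0.13 on array 1 and -0.15 on array 2 (-0.14 ± 0.01) and did not pass, while RPS9B fell with -1.27 and -0.84 (-1.06 ± 0.30). Copy A was thus above copy B by 1.14 on array 1 and 0.70 on array 2 (0.92 ± 0.32). This protein of the body takes part in decoding accuracy. In the pair RPS7, a body protein, RPS7A gave -0.54 and -0.23 (-0.39 ± 0.22) without passing and RPS7B fell with -1.21 and -0.96 (-1.09 ± 0.17). The difference, 0.67 and 0.73 (0.70 ± 0.04), was nearly the same on both arrays. These were the 2 pairs that differed by 0.5 or more. The values of their copies do not overlap, which adds little for pairs picked by a large difference. Those of RPS28A (-0.78 and -0.59) and RPS28B (-1.12 and -1.06) do not overlap either.

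Smaller differences of 1 sign were found in RPS28, where copy A was above copy B by 0.35 and 0.47 (0.41 ± 0.09), with both copies lower in pyruvate, and in RPS27, RPS16 and RPS25. Copy A was above copy B by 0.26 and 0.24 in RPS16 (0.25 ± 0.02), a head protein whose tail reaches the tRNA. It was above by 0.18 and 0.27 in RPS25 (0.23 ± 0.06), a head protein needed for some internal initiation of translation. Neither copy of these pairs passed as lower: RPS16A stood at -0.31 ± 0.27 and RPS16B at -0.56 ± 0.28, RPS25A at -0.18 ± 0.23 and RPS25B at -0.41 ± 0.17. RPS27 was the pair with the largest difference the other way, and it rested on array 2: RPS27A minus RPS27B was -0.02 on array 1 and -0.53 on array 2 (-0.27 ± 0.36), with RPS27B at -0.37 and 0.31. The closest pairs were RPS0, RPS26 and RPS21, with mean differences of 0.01, 0.02 and 0.02. In RPS0 and RPS26 that mean hides differences of opposite sign, 0.20 and -0.19 in RPS0 and 0.15 and -0.11 in RPS26. The fit called 1 copy and not the other in 6 pairs, RPS0 and RPS26 among them, and such a split of calls is no test of a difference between copies. An exact sign-flip test over 2 arrays cannot give a two-sided p below 0.5, so no pair was tested on its own.

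**Figure D3:**
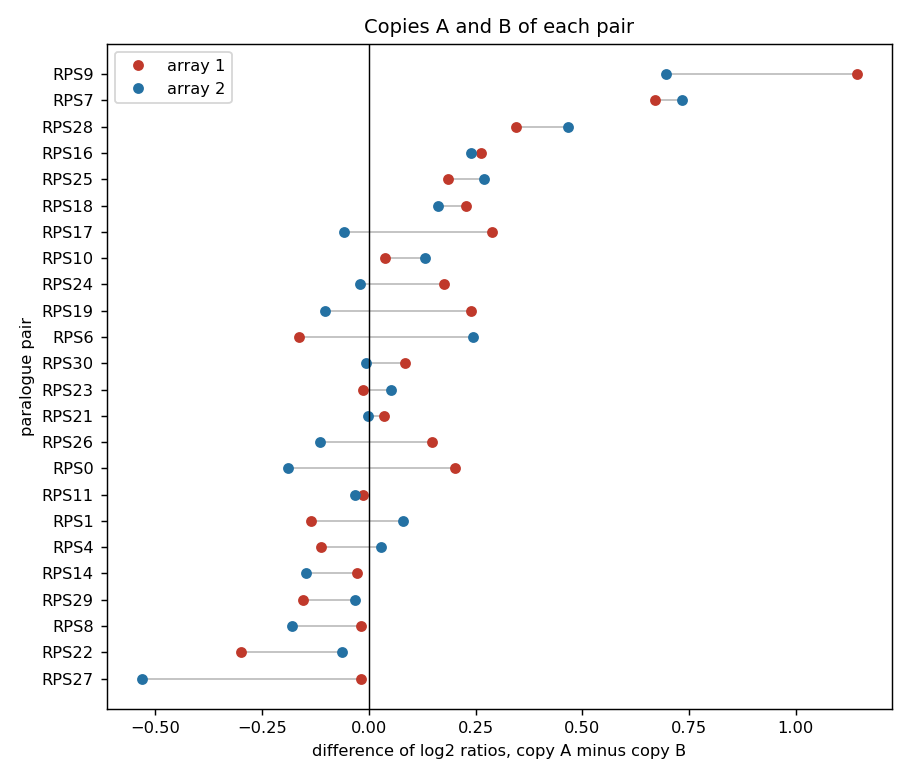
Difference of log2 ratios, copy A minus copy B, for each of the 24 pairs on array 1 (red) and array 2 (blue). RPS9 and RPS7 lie to the right by 0.67 or more, and copies of 15 pairs differ by 0.1 or less in mean.

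In the RefSeq gene order, 7 members lie next to another measured ribosomal protein gene, in 7 neighbouring pairs. RPS16A lies beside RPL13B and RPS16B beside RPL13A, an arrangement kept from the duplication. RPS16B (-0.56 ± 0.28) and RPL13A (-0.95 ± 0.19) kept the same order of values on both arrays, as did RPS16A (-0.31 ± 0.27) and RPL13B (-0.88 ± 0.43), with the large subunit gene lower each time. RPS14B, RPS22A and RPL39 lie in a row on chromosome X, with means of -0.56, -0.93 and -0.27. RPS9B (-1.06 ± 0.30) neighbours RPL21A (-0.73 ± 0.34), and RPS15 (-0.86 ± 0.28) neighbours RPP2A (-0.60 ± 0.09). RPS19B, at -1.05 and -0.14, lies beside RPL18B, at -0.55 and -0.53, so neighbours did not share the gap between arrays there.

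Large subunit protein genes gave a similar picture. The test called 30 of 81 such genes lower (37.0%, against 17.2% of all genes) and 0 higher, and the median of -0.64 was -0.97 on array 1 and -0.44 on array 2. Their median gap between arrays was 0.44, close to the 0.43 of the small subunit. The difference between the subunits was not tested.

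Among 13 regulators of ribosomal protein gene transcription, 3 rose and 1 fell, against 27.1% and 17.2% of all genes, so these counts do not set them apart. Their median was 0.03. CRF1, a co-repressor that binds Fhl1 at ribosomal protein genes when TOR is inhibited, rose by 3.06 on array 1 and 1.90 on array 2 (2.48 ± 0.81; limma adjusted p of 0.0292). STB3, a repressor of ribosome assembly genes, rose by 0.84 and 0.71 (0.77 ± 0.09), and TOR1, a kinase of the TOR pathway, by 0.50 and 0.52 (0.51 ± 0.02). TOD6, another repressor of ribosome assembly genes, fell with -0.94 and -0.74 (-0.84 ± 0.14). RAP1 (-0.08 ± 0.02), FHL1 (-0.09 ± 0.09), IFH1 (-0.02 on both arrays) and SFP1 (0.03 ± 0.10) stood near 0 and did not pass. The rest of the list did not pass either, though not all of it stood near 0. HMO1 was at 0.07 ± 0.11, DOT6 at 0.365 ± 0.086 and ABF1 at 0.47 ± 0.18. Among the kinases, SCH9 (-0.30 ± 0.08) and TOR2 (-0.14 ± 0.07) did not pass. With each array centred on its median TOR1 no longer passed (0.41; limma adjusted p of 0.0756).

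Genes for the late maturation of the small subunit mostly fell. Their list, like that of the regulators, was chosen with earlier results of these data known. The test called 10 of 18 such genes lower (55.6%, against 17.2% of all genes) and 0 higher (27.1% of all genes), and the median was -0.55. RRP12, which helps export the subunits from the nucleus, stood at -1.45 and -1.43 (-1.44 ± 0.01; limma adjusted p of 0.0127). TSR1, a late assembly factor, stood at -1.16 and -1.06 (-1.11 ± 0.07), and ENP1, a protein of the immature subunit, at -1.07 and -0.93 (SD of 0.10). Their median gap between arrays was 0.08, against 0.43 for the ribosomal proteins they act on. Dedicated chaperones of single small subunit proteins did not move as 1 group. TSR4, the chaperone of Rps2, fell (-0.48 ± 0.01), whereas YAR1 (-0.28 ± 0.04), that of Rps3, TSR2 (-0.21 ± 0.12), that of Rps26, and FAP7 (0.18 ± 0.22), which acts on Rps14, did not pass. RIO1, a kinase of the last maturation steps, stood at -0.12 ± 0.03 and did not pass. Its value came only from features called dim in the account of the processing.

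**Figure D4:**
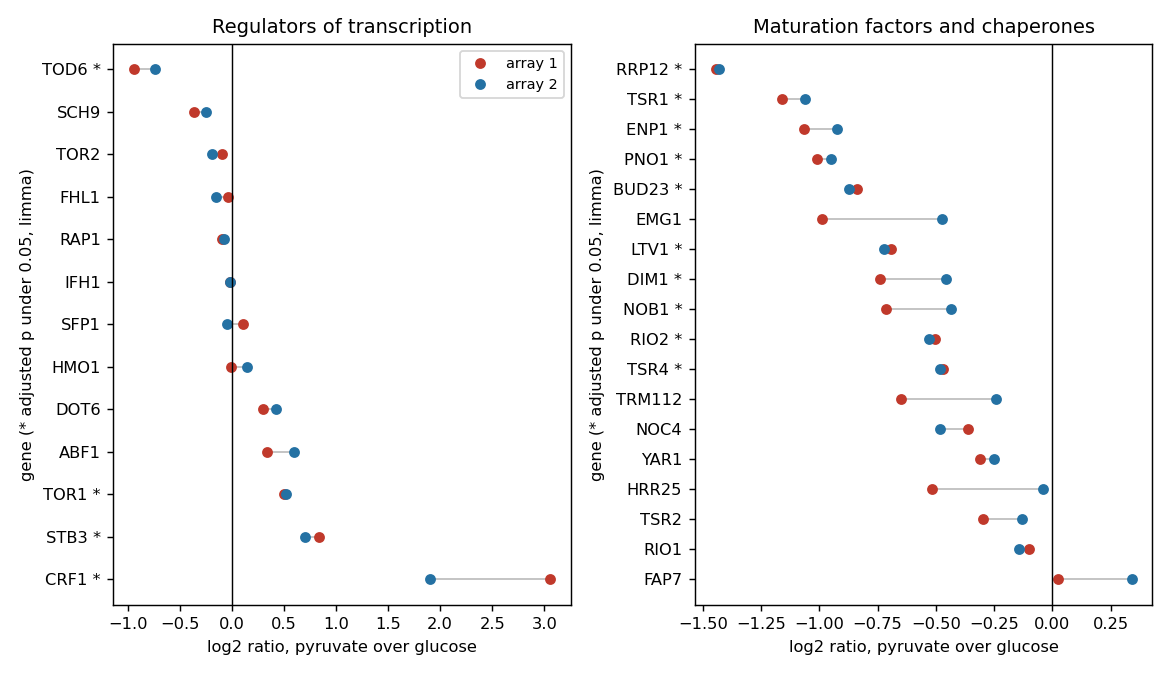
Log2 ratio of pyruvate over glucose on array 1 (red) and array 2 (blue) for 13 regulators of ribosomal protein gene transcription and 18 maturation factors and chaperones of the small subunit; a star marks genes at a limma adjusted p under 0.05. CRF1 lies far to the right, RAP1, FHL1, IFH1 and SFP1 lie near 0, and 10 of the 18 maturation genes carry a star, all below 0.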

How the data were processed

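The authors deposited 1 log2 value per feature and array, 10807 features in all, of which 10 and 6 lack a value. Per the labels, an Agilent low-input amplification kit was used on total RNA; no source used here names the scanner, background correction or normalization. That the ratio is log2 was inferred: 935 features on array 1, and 784 on array 2 once 0.008 was subtracted, matched to 3 decimals the log2 of whole-number ratios up to 10, against medians of 136 and 141 at other offsets. Such features are called dim. The deposited medians were -0.29 and -0.08, and centring and channel order stay unknown.

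Array 1 was multiplied by -1, following its dyes. The deposited columns had a Pearson r of -0.81 over features of named genes, 0.86 over unnamed ones and 0.16 over all. The platform annotation gave 1 gene for 9202 features, several for 0 and none for 1605, and 9194 were matched to a current name. Features were averaged per gene; whether they are copies of 1 probe is not known. No coordinates are printed, since the files name no build.

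limma 3.58.1 in R 4.3.3 (lmFit and eBayes; residual degrees of freedom of 1, prior of 1.67) was run over all 5598 genes with Benjamini-Hochberg adjustment; with a dye term nothing would remain to estimate the spread. The test was simulated for pyruvate against glucose over 5598 genes, of which 200 were changed. It recovered 1% of genes changed 2-fold and 67.1% of those changed 4-fold, with 5.79% false calls. In the data 44.3% of genes were called, a larger share than was simulated, and the adjustment depends on that share. These recoveries therefore do not carry over to the data, where the smallest absolute mean called by limma was 0.40. Other software was Python 3.11.15 with pandas 2.3.3, numpy 2.4.6 and matplotlib 3.10.9.

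Members and lists were chosen with earlier results of these data known; a gene that the rule also takes is not reported here. The rule for named genes took all single-copy members, the 5 lowest and 5 highest means, the 5 largest gaps between arrays, the 6 most and 3 least different pairs, the 3 lowest and 3 highest regulators and maturation genes, and 5 glucose-repressed genes. It gave 33 members and 17 other genes; others named were added after their values were seen. Alternatives were centring, scaling, medians over features, robust or no moderation, leaving out dim features or an array, features in place of genes, and a minimum change of 1.5-fold.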

Additional observations from a re-analysis of the deposited data

How the results depend on the processing

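The median of the members was below 0 under centring, scaling, medians over features, robust or no moderation, without dim features and on either array alone, from -0.75 (array 1) to -0.27 (array 2). By limma 0 members rose under those of these settings that allow a test; members that rose were not counted with features in place of genes or against a minimum change. The count of members that fell, 15 of 56, stood against 17.2% of all genes. With each array centred on its median it was 28, against 22.5% of all genes. With features in place of genes it was 29 of 93, against 16.7% of all features. Against a minimum change of 1.5-fold it was 1 (RPS28B), against 3.29% of all genes. By limma without moderation it was 0, against 0.0893% of all genes. There, 2 members were lower at an unadjusted p under 0.05, while 1580 of all genes passed that threshold in either direction. Lower genes were not counted apart among these 1580. After adjustment, 10 of all genes were called. It was 19 with scaled arrays (17.8% of all genes) and 20 of 54 without features read as dim (21.0% of all genes). It was 16 with robust moderation (17.4% of all genes) and 15 with medians over features (17.2% of all genes). The 15 calls were all kept under those 4 alternatives and under centring. At least 2-fold lower on both arrays was 1 member, against 2 with centring and 4 with scaling; array 1 alone had 19 and array 2 alone 1. Below 0 were 56 members on array 1 and 48 on array 2. The median difference within pairs, 0.09, was 0.16 on array 1 alone and 0.12 on array 2 alone, and the head median ranged from -0.77 to -0.15, the body median from -0.73 to -0.33. Under centring RPS30A (-0.0076) and RPS30B (-0.0469) turned below 0. Without dim features CRF1 stood at 2.73, and RIO1 had no value. No test was possible with 1 array left out, because no residual degree of freedom remains, and the count of pairs of 1 sign needs both arrays. The conditions are already paired in the main test, because each array holds both and the ratio within it was tested. With no brightness in the table, dim, saturated or compressed spots could not be told from the others.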

Other observations

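RPS31 is 1 of the yeast genes that encode ubiquitin, and the others were looked at after its values were seen. RPL40A and RPL40B, whose products join ubiquitin to a large subunit protein, gave opposite signs on the arrays as RPS31 did. RPL40A stood at -0.63 on array 1 and 0.27 on array 2 (-0.18 ± 0.64), and RPL40B at -0.72 and 0.12 (-0.30 ± 0.59); neither passed limma's test. UBI4, the stress-induced gene for a chain of ubiquitin units with no ribosomal protein, rose by 1.23 and 1.53 (1.38 ± 0.21; limma adjusted p of 0.0165). The gaps of the fusion genes between arrays were 1.66 for RPS31, 0.90 for RPL40A and 0.84 for RPL40B. Probes for 1 of these genes may bind the ubiquitin part of another, which was not tested.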
